A study of Mus musculus with 6 samples.

Results

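Plexins and neuropilins are the receptors of the semaphorins, and 10 of their genes were followed here in mouse liver: Plxna1, Plxna2, Plxna3, Plxna4, Plxnb1, Plxnb2, Plxnc1, Plxnd1, Nrp1 and Nrp2. All of their probe sets with a single gene symbol were taken, 28 of 34945 such probe sets, which stand for 10 of 18193 genes. The study hybridized liver RNA of Mig-6 d/d mice to 3 Affymetrix expression arrays and that of Mig-6 f/f mice to 3. In both groups the mice were males 8 weeks old, of a mixed background, kept on standard chow and fasted for 24 h before sampling. Errfi1 encodes Mig-6, which restrains signalling by the epidermal growth factor receptor and its relatives. By the usual notation f/f stands for floxed alleles and d/d for their deleted form. The Cre driver of the deletion, and whether each array holds a separate animal, are not given in the sources used here, so the errors below measure the spread between these samples. The family was chosen by the measured difference of Plxna2 between these same genotypes, so the differences of its members are given as a description and no test is drawn from them.

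Plexins are single-pass membrane receptors whose cytoplasmic part acts on small GTPases of the Ras and Rap kind, and through these on adhesion and the cytoskeleton. Most secreted semaphorins need a neuropilin to bind the ligand and a plexin of class A to signal, whereas membrane-bound semaphorins bind their plexins directly. Neuropilins also bind vascular endothelial growth factors. In the liver they are best known from the endothelium of the sinusoids.

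Values are deposited intensities on a linear scale unless said otherwise. After quantile normalization, log2(intensity + 16) in f/f was subtracted from that in d/d. The standard error of this log2 difference is that of limma for 3 arrays per group, and for dim probe sets the difference understates the change. A probe set was called dim when its mean lay in the lowest 40% of all probe sets, at an intensity of about 48.3. Of the 28 probe sets, 21 lay above this threshold and 7 under it, and each of the 10 genes had at least 1 above it.

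Errfi1 read 59.6 to 68.0 on the d/d arrays, against 5371 to 5686 on the f/f arrays, by the brighter of its probe sets. Alb, the defining marker of hepatocytes, read 34684 to 35799.7 on the d/d arrays, against 33743 to 34157 on the f/f arrays. As deposited, every d/d array was thus above every f/f array. Quantile normalization gives the same value to the same rank, and Alb came out equal on all 6 arrays. That equality does not measure the hepatocyte content. One array, that of f/f replicate 3, differed from the rest. Control probe sets for 18S ribosomal RNA averaged 3807 on it, where the other 5 arrays had 218 to 455, and its mean correlation with the others was 0.963, where theirs were 0.978 to 0.981. Among the 3 f/f arrays it gave the highest normalized value for 8 of the 28 member probe sets, the lowest for 17 and the middle one for 3. It gave the lowest normalized f/f value for all 4 probe sets of Plxna2, but the lowest deposited f/f value for 1455037_at only. Without that array the log2 differences of Plxna2 were smaller, at 0.94, 0.84, 0.39 and 0.32 for 1453286_at, 1455037_at, 1451753_at and 1429772_at. Differences without it are therefore given beside the others.

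Plxna2 was the member that stood out. It is a class A plexin that binds Sema6a directly and secreted semaphorins together with a neuropilin, and all 4 of its probe sets were brighter in the d/d livers. In the fit over all genes, where each gene is represented by its brightest probe set, Plxna2 was the 1 of 10 members past an adjusted p of 0.05 (limma with Benjamini-Hochberg adjustment over 13718 genes). Over all genes 13 passed, 0.0948%, and 6 of these were higher in d/d, 0.0437%. In the fit over all probe sets 26 passed, 0.0744%, of which 1 was of the family, 1453286_at of Plxna2. With a pseudocount of 1 in place of 16, 0 probe sets of Plxna2 passed there. This contrast brought the family into view, so nothing is read from that count. The gene lies on chromosome 1 and its annotated start region is printed below because it belongs to the 1 member past the threshold.

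The sequence is the 250 bases before the annotated transcript start of Plxna2, chr1:194619579-194619828 on the plus strand of GRCm38.p6, from RefSeq. Capitals mark the GC box GGGCGG.
Plxna2: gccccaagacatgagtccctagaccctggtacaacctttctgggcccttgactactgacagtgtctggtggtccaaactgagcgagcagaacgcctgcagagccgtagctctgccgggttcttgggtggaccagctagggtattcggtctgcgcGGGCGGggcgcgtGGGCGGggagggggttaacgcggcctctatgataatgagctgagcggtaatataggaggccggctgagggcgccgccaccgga
The GC boxes began 96 and 83 bases before the start. The stretch held 18 CpG pairs at 62.8% G or C, where the median over 32851 promoters of the same length was 6 CpG pairs and 52.4%. On either strand it held no match to the cAMP response element TGACGTCA, the AP-1 element TGANTCA, the E-box CACGTG, the ETS element CCGGAAG or the FOXO element GTAAACA. Of all promoters, 1.55%, 6.75%, 6.02%, 6.91% and 3.17% held one of these, in the same order, and 32.7% held a GC box. A promoter was listed for 8 of the 10 members, 9 promoters in all. Each of the 9 held a GC box, Nrp2 with the most at 5, and Plxnb1, Plxnc1 and 1 of the Plxnb2 promoters with 4 each, and the ETS element was found in Plxnb1 alone. With GC boxes alone in the Plxna2 stretch, no kinds of motif overlapped there, and a match or its absence describes letters only.

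The probe set of Plxna2 used in the fit over all genes, 1453286_at, read 217, 195 and 191 in d/d livers, against 92.9, 97.1 and 94.6 in f/f livers. The lowest d/d array was 1.96 times the highest f/f array. The means were 201 ± 14.1 in d/d and 94.9 ± 2.12 in f/f (SD, n = 3 each), a log2 difference of 0.98 ± 0.11.

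A second probe set, 1455037_at, moved by about as much. It read 129, 96.6 and 109 in d/d livers, against 57.4, 49.3 and 48.6 in f/f livers, with a log2 difference of 0.92 ± 0.14. Its d/d values spread more widely than those of the first probe set, but the groups did not come near each other.

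The other two probe sets of Plxna2 moved less. The probe set 1451753_at read 151.4, 147 and 160.4 in d/d livers, against 125, 97.6 and 108 in f/f livers, a log2 difference of 0.44 ± 0.13. The dim probe set 1429772_at read 51.9, 42.7 and 52.4 in d/d livers, against 34.3, 35.8 and 36.5 in f/f livers, a log2 difference of 0.35 ± 0.12. In both, every d/d array was above every f/f array, by a factor of 1.17 between the nearest arrays.

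**Figure D1:**
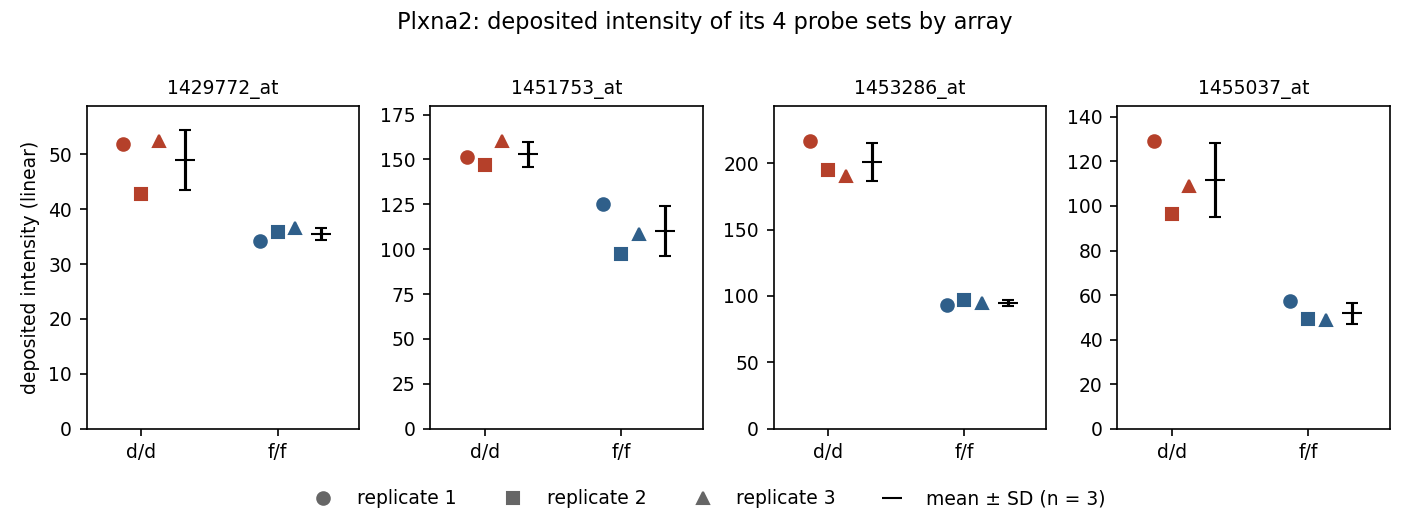
Deposited intensity (linear, vertical axes from 0) of the 4 Plxna2 probe sets in 3 d/d livers (left of each panel, red) and 3 f/f livers (right, blue), with symbols for the replicate number and black bars for mean ± SD (n = 3). In each panel every d/d array lies above every f/f array, with means of 201 in d/d and 94.9 in f/f for 1453286_at, and of 153 in d/d and 110.3 in f/f for 1451753_at.

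By the ratio of deposited means, d/d over f/f, the Plxna2 probe sets fell into pairs. It was 2.12 for 1453286_at and 2.16 for 1455037_at, against 1.38 for 1429772_at and 1.39 for 1451753_at. No background was taken off here, and 1429772_at was dim, so its place in a pair rests on a low signal. The pairing does not follow the source sequence, since 1429772_at and 1453286_at were designed from the same one. The place of each probe set in the transcript was not analysed here. The 95% intervals were 0.73 to 1.23 for 1453286_at and 0.16 to 0.72 for 1451753_at. They were 0.61 to 1.24 for 1455037_at and 0.084 to 0.61 for 1429772_at.

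With each array left out in turn, the log2 difference lay between 0.93 and 1.02 for 1453286_at, 0.83 and 1.03 for 1455037_at, 0.39 and 0.55 for 1451753_at, and 0.28 and 0.44 for 1429772_at. The sign stayed positive each time, which the separate groups on all 4 made nearly certain, although the remaining arrays were normalized anew. Whether Plxna2 passed depended on which array was left out. In the fit over all genes Plxna2 still passed when f/f replicate 3 was left out, and in the fits that lacked f/f replicate 1 or 2 or any 1 of the d/d replicates it did not. Averaged over its 4 probe sets, Plxna2 had a log2 difference of 0.67 and did not pass.

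Of 1093 genes that, like Plxna2, had 4 single-symbol probe sets on the array, 3 had all 4 separate and higher in d/d, 0.274%, and 0 had all 4 separate and lower. Plxna2 was 1 of the 3. Among single probe sets, separation with d/d higher was found in 6.78% of all 34945. In the family it was found for 7 of 28, of which 4 belonged to Plxna2, and separation with d/d lower for 0, against 6.28% of all probe sets. The contrast is the one that brought up the family, and nothing is read from these shares.

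The other class A plexins lay close to 0. Their 6 probe sets had log2 differences from -0.10 to 0.16 with a median of -0.045, and 0 of the 6 had separate groups. Plxna1, a partner of neuropilins for secreted semaphorins, read 61.6, 63.3 and 53.8 in d/d livers, against 56.4, 65.9 and 64.9 in f/f livers by its brighter probe set. The groups overlapped throughout, and the log2 difference was -0.035 ± 0.11, with a 95% interval of -0.27 to 0.21.

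Plxna3, which pairs with Nrp2 in the response to Sema3f, read 104, 114 and 93.6 in d/d livers, against 96.4, 107 and 129 in f/f livers. Its log2 difference was -0.055 ± 0.11, and the other Plxna3 probe set had 0.028 ± 0.11. Plxna4, a receptor of Sema3a with Nrp1 and of class 6 semaphorins, read 117, 86.2 and 86.3 in d/d livers, against 82.2, 96.5 and 141 in f/f livers. A single array was high in each group, d/d replicate 1 and f/f replicate 3, and the log2 difference of -0.092 ± 0.16 became 0.052 without f/f replicate 3. The dim Plxna4 probe set had -0.10 ± 0.12. The intervals of these class A probe sets reached at most 0.51, for the dim probe set of Plxna1.

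Plxnb1, the receptor of Sema4d, had probe sets that disagreed. By 1435254_at it read 104, 105 and 109.6 in d/d livers, against 73.2, 83.2 and 63.7 in f/f livers. The groups were separate, with a log2 difference of 0.47 ± 0.14. By the brighter 1435255_at it read 218, 222 and 162 in d/d livers, against 156, 189 and 308 in f/f livers, with a log2 difference of -0.067 ± 0.21. The groups overlapped there, and f/f replicate 3 was the highest of the 6 arrays. Without that array the log2 differences were 0.34 for 1435254_at and 0.18 for 1435255_at.

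Plxnb2, which answers Sema4c and is the other class B plexin of the list, had 1 probe set. It read 537, 548 and 610.3 in d/d livers, against 548, 580.1 and 507 in f/f livers. The groups overlapped, with a log2 difference of 0.051 ± 0.11 and a 95% interval of -0.19 to 0.30. The value was 0.0053 without f/f replicate 3.

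Plxnc1, the receptor of Sema7a, had 6 probe sets, 2 of them above the dim threshold. The brightest read 177, 148 and 181 in d/d livers, against 218, 150.1 and 178 in f/f livers, a log2 difference of -0.075 ± 0.15. The dim probe sets 1443433_at and 1450906_at were separate with d/d higher, at 0.27 ± 0.12 and 0.29 ± 0.12, on intensities of 22.2 to 50.1. The remaining 3 had overlapping groups and log2 differences from -0.20 to -0.091.

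Plxnd1, an endothelial plexin that binds Sema3e without a neuropilin, read 99.5, 102 and 110.2 in d/d livers, against 103, 111 and 95.2 in f/f livers. The groups overlapped, with a log2 difference of 0.033 ± 0.13, which was -0.068 without f/f replicate 3.

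**Figure D2:**
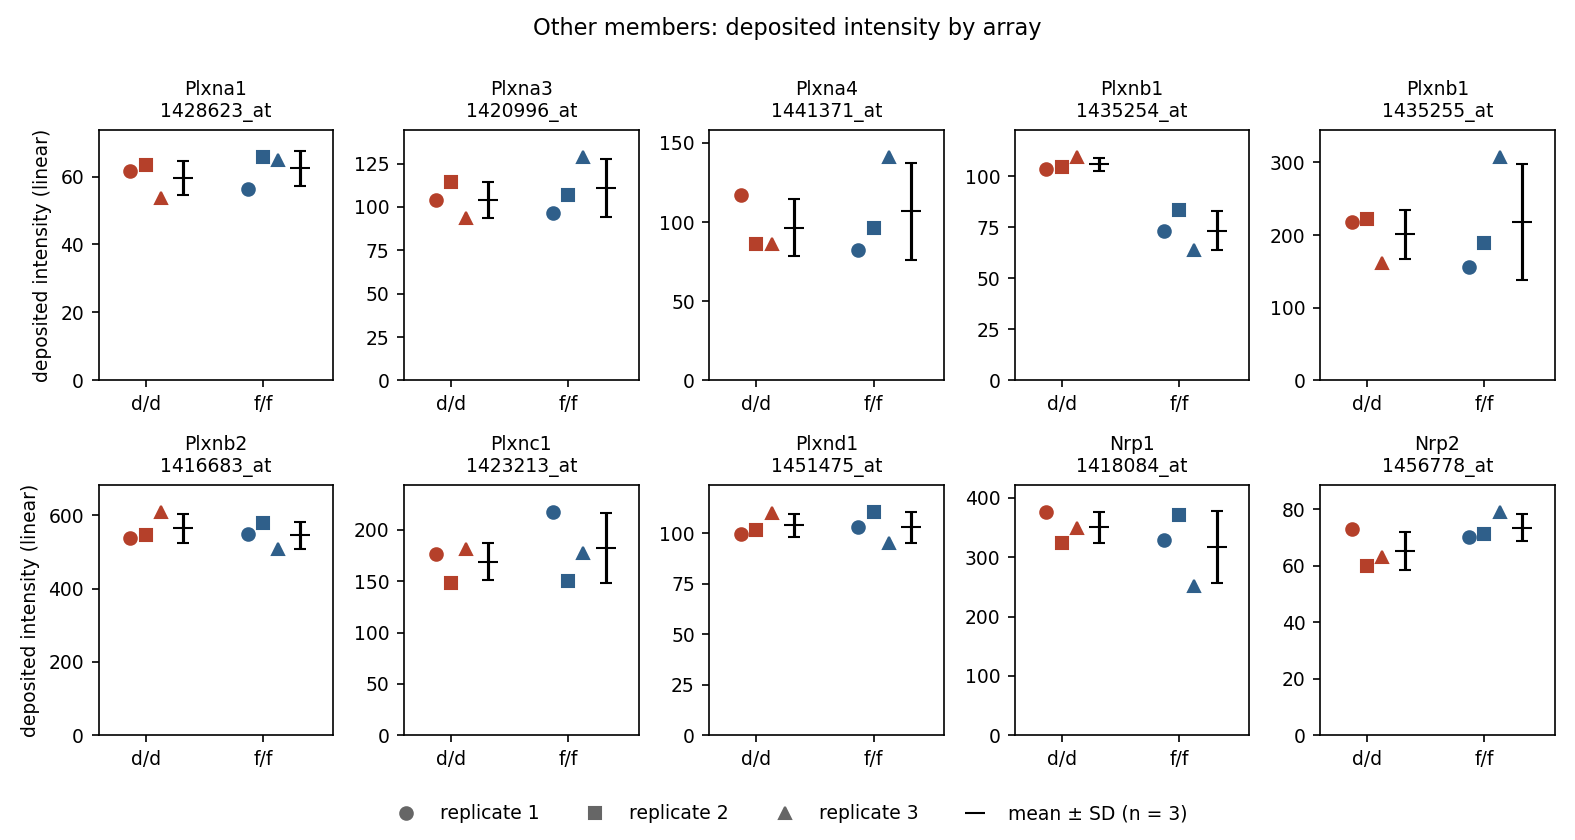
Deposited intensity (linear, vertical axes from 0) of the other 9 members in 3 d/d livers (left of each panel, red) and 3 f/f livers (right, blue), by the probe set used in the fit over all genes and, for Plxnb1, also by 1435254_at. Symbols give the replicate number and black bars mean ± SD (n = 3). The groups overlap in every panel except Plxnb1 by 1435254_at, where d/d arrays read 104 to 109.6 and f/f arrays 63.7 to 83.2.

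The neuropilins, which hold the ligand for class A plexins, had 8 probe sets, all above the dim threshold and all with overlapping groups. Nrp1 read 377, 324 and 349 in d/d livers, against 330, 371 and 251 in f/f livers by 1418084_at. The array of f/f replicate 3 was the lowest of the 6, as it also was for 1448943_at and 1448944_at. The 4 probe sets of Nrp1 had log2 differences from 0.13 to 0.20. Without f/f replicate 3 they were 0.0039, -0.078, -0.041 and 0.14, so the sign of 2 turned.

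Nrp2 read 72.9, 59.96 and 62.9 in d/d livers, against 70.0, 71.4 and 79.1 in f/f livers by 1456778_at. The d/d array of replicate 1 lay within the range of f/f, and the log2 difference was -0.12 ± 0.11. The other 3 probe sets of Nrp2 had -0.12, -0.069 and 0.021, none of them with separate groups.

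Over the 24 probe sets of the 9 other members, 12 log2 differences were positive and 12 negative, with a median of -0.0068 and a range from -0.20 to 0.47. The median over all 34945 probe sets was -0.0083. The 4 probe sets of Plxna2 had a median of 0.68 and a range from 0.35 to 0.98. Without f/f replicate 3 the medians were 0.61 for Plxna2 and -0.014 for the other 9 members.

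**Figure D3:**
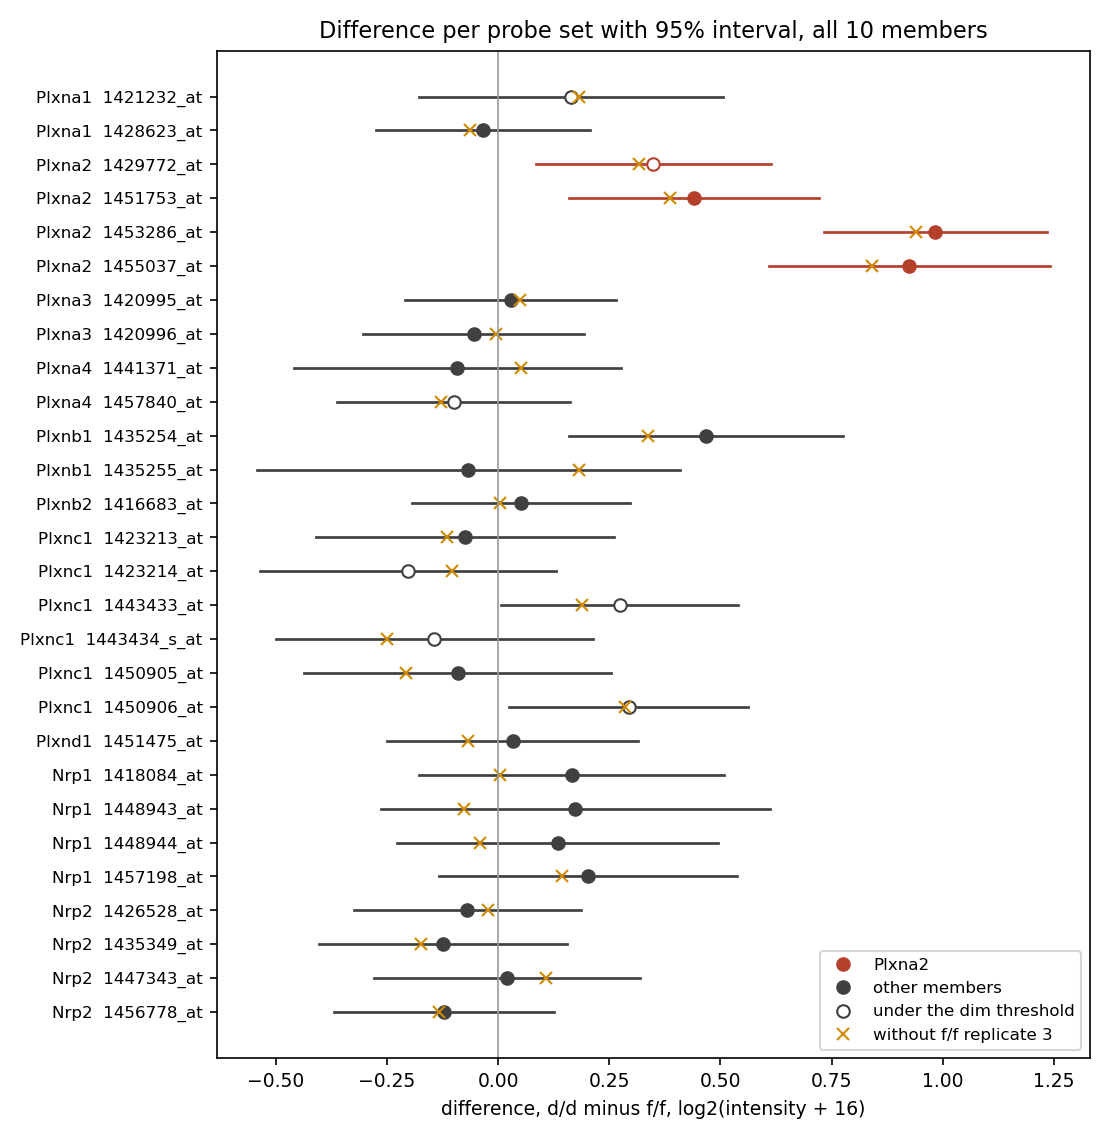
Difference d/d minus f/f (horizontal axis, log2(intensity + 16)) of the 28 probe sets of all 10 members, with limma's 95% interval as a line. Filled points lie above the dim threshold and open points under it, and crosses give the difference without f/f replicate 3. The Plxna2 probe sets (red) lie between 0.35 and 0.98 and the other 24 between -0.20 and 0.47.

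The ligands and signalling partners were read from the same fit over all genes, whose median log2 difference was -0.015. Of the 3 secreted semaphorins tested (of 7 listed), 0 passed in limma with Benjamini-Hochberg adjustment and 0 had an unadjusted p under 0.05, with a median log2 difference of -0.027. Sema3f read 305 to 319 in d/d livers, against 321 to 578 in f/f livers, a log2 difference of -0.34 ± 0.20, with the highest value in f/f replicate 3. It was the 1 of the 3 with separate groups, with d/d lower, against 6.79% of all genes. Sema3a, the ligand of Nrp1 with class A plexins, had -0.027 ± 0.15 and Sema3b 0.10 ± 0.11.

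Of the 11 membrane semaphorins tested (of 13 listed), limma passed 0, the unadjusted p was under 0.05 for 1, against 7.84% of all genes, and the median log2 difference was -0.073. The brightest, Sema4g, read 676 to 781 in d/d livers, against 637 to 748 in f/f livers, a log2 difference of 0.094 ± 0.12. Sema4a had 0.12 ± 0.12. The largest differences in size were those of Sema6c (-0.34 ± 0.14) and Sema6b (-0.30 ± 0.14), both with their highest value in f/f replicate 3. On normalized values 3 of the 11 were separate with d/d lower and 0 with d/d higher, against 6.79% and 7.9% of all genes. Sema6a, the direct ligand of Plxna2 and named here for that reason, read 61.8 to 74.0 in d/d livers, against 54.1 to 71.8 in f/f livers, with overlapping groups and a log2 difference of 0.15 ± 0.11.

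Of the 7 vascular endothelial growth factors and receptors tested (of 9 listed names, Vegfd standing under both its names), limma passed 0 and the unadjusted p was under 0.05 for 0. Vegfa, a ligand of Nrp1, had a log2 difference of 0.17 ± 0.20, Flt1 0.13 ± 0.18 and Flt4 0.073 ± 0.14. The median of the list was 0.029.

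Among coreceptors of plexins and other semaphorin receptors, 0 of 8 tested (of 12 listed) passed in limma, and 1 reached an unadjusted p under 0.05, against 7.84% of all genes. That was Itgb1, the integrin chain that Sema7a engages, which read 1210.1 to 1729 in d/d livers, against 1093 to 1223 in f/f livers, a log2 difference of 0.39 ± 0.14. Timd2, a receptor of Sema4a in mouse, had 0.23 ± 0.15, and Tyrobp, an adaptor that Plxna1 reaches through Trem2, -0.25 ± 0.14.

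Of the 31 effectors tested (of 34 listed), limma passed 0 and the unadjusted p was under 0.05 for 2, against 7.84% of all genes. The median log2 difference was 0.052. The GTPase Rac1, which binds plexins, had 0.18 ± 0.11 and the actin-severing protein Cfl1 -0.083 ± 0.10. The kinase Fyn, which acts in the response to Sema3a, had -0.49 ± 0.27. It read 121 to 175 in d/d livers, against 122 to 294 in f/f livers, with the highest value in f/f replicate 3. Rnd1, a GTPase that binds the cytoplasmic part of plexins, read 67.5, 61.3 and 74.9 in d/d livers, against 93.6, 86.6 and 105 in f/f livers. Its groups were separate with d/d lower, with a log2 difference of -0.38 ± 0.12, and it did not pass. Rnd1 and Gsk3b, the latter named for that reason, were the 2 with an unadjusted p under 0.05. Gsk3b had 0.36 ± 0.13, with separate groups and d/d higher. Of the 31 effectors 2 were separate with d/d higher and 2 with d/d lower, against 7.9% and 6.79% of all genes.

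**Figure D4:**
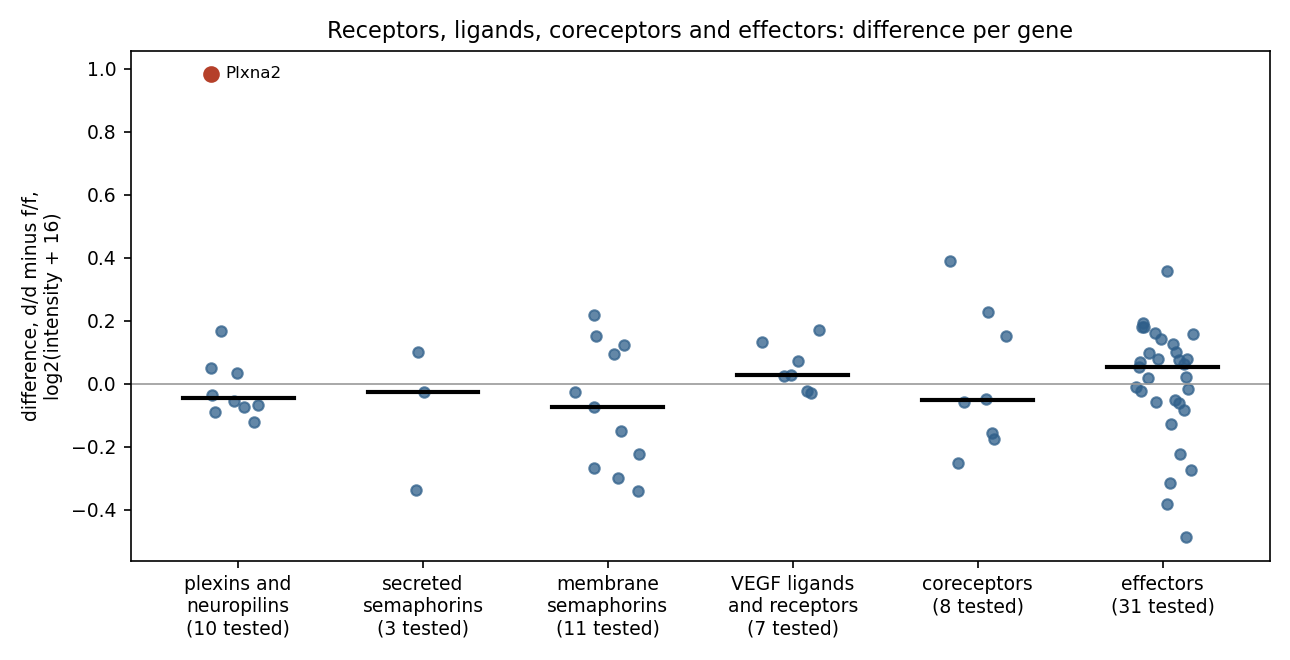
Difference d/d minus f/f (vertical axis, log2(intensity + 16)) per gene, by its brightest probe set, for the receptors and 5 lists of ligands and partners, with a black line for each list's median. Plxna2 (red) is at 0.98, and the medians lie between -0.073 for membrane semaphorins and 0.052 for effectors.

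In whole liver, fewer cells of a type and less RNA per cell cannot be told apart, so markers of the cell types that could carry these receptors were read from the same arrays. Summed over the 12 endothelial markers, intensities were 2451 to 2703 in d/d livers, against 2330 to 2638 in f/f livers. The lowest of the 6 sums was that of f/f replicate 3, the array also lowest for 3 of the 4 Nrp1 probe sets. Some of the 12 markers had their highest value on that array. Of these markers 9 had a positive and 3 a negative log2 difference, with a median of 0.062, and the brightest were Ptprb (0.088 ± 0.14) and Clec4g (0.28 ± 0.17). The 10 stellate cell markers summed to 2752 to 3301 in d/d livers, against 3437 to 3894 in f/f livers, so the groups did not overlap. There 7 of 10 were lower in value, with Dcn at -0.28 ± 0.12 and Ecm1 at -0.34 ± 0.15, and a median of -0.097. Col3a1 had the largest difference of the list, 0.41 ± 0.32, with d/d higher in value. Dcn made up more of the sum than the other 9 markers together, and without it, a choice made after seeing the data, the sums overlapped, at 1286 to 1518 in d/d livers, against 1408 to 1729.98 in f/f livers. The part of stellate cells in the Plxna2 difference was not tested.

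The 11 Kupffer cell markers summed to 2672 to 3411 in d/d livers, against 3110 to 4368 in f/f livers, so the groups overlapped. There 10 of 11 were lower in value in d/d, with a median of -0.26, and of -0.21 without f/f replicate 3. Cd5l had -0.32 ± 0.20 and Csf1r -0.41 ± 0.20, both with their highest value in f/f replicate 3. Of the 11 markers 2 were separate with d/d lower and 1 with d/d higher, against 6.79% and 7.9% of all genes. The part of Kupffer cells in the Plxna2 difference was not tested. The 7 hepatocyte markers summed to 136072 to 138369 in d/d livers, against 136136 to 138217 in f/f livers. Apoa1, the brightest of them beside Alb, had a log2 difference of 0.054 ± 0.095. Its normalized values are set by its rank, as for Alb, so this difference does not measure the hepatocyte content. As deposited, Apoa1 read 29189 to 29379 in d/d livers, against 27781 to 27931.5 in f/f livers. Of the markers of bile duct cells, lymphocytes and nerve, 3 of 6, 4 of 7 and 2 of 4 lay above the dim threshold, in that order. Their sums were 327 to 355 for bile duct cells, 453 to 585 for lymphocytes and 258 to 279 for nerve in d/d livers, against 275 to 399, 424 to 621 and 260.1 to 393 in f/f livers in the same order. Their brightest markers were Tspan8 (0.14 ± 0.16) and Epcam (-0.17 ± 0.16), Cd8a (-0.073 ± 0.17) and Cd3e (-0.20 ± 0.18), and Ngfr (-0.078 ± 0.12) and Tubb3 (-0.21 ± 0.18). Ms4a1 of the lymphocyte list, which encodes the B cell antigen CD20, was separate with d/d higher. It read 188, 136 and 116 in d/d livers, against 86.7, 58.5 and 64.9 in f/f livers, a log2 difference of 0.93 ± 0.19, and it was picked out after its values were seen. Cd79a, another B cell marker, had -0.15 ± 0.11, and the part of B cells in the Plxna2 difference was not tested. In none of the marker lists did a gene pass in limma, and the numbers at an unadjusted p under 0.05 were 1 endothelial, 2 stellate, 2 Kupffer, 1 lymphocyte and 0 hepatocyte, bile duct and nerve markers, against 7.84% of all genes.

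The genes whose values over the 6 arrays ran closest to those of Plxna2 were sought among the 13718 tested. Likeness was the root mean square distance between centred log2 values, whose median over all genes was 0.52. The nearest was Hgfac, the protease that activates hepatocyte growth factor, at 0.063, followed by Inmt, an N-methyltransferase, at 0.10, and Ak4, a mitochondrial adenylate kinase, at 0.12. Afm, a vitamin E-binding plasma protein, and Prkd3, a protein kinase D, both followed at 0.13. Hgfac read 2891 to 3190 in d/d livers, against 1542 to 1772 in f/f livers, a log2 difference of 0.90 ± 0.10, and Prkd3 700.5 to 799.6 in d/d livers, against 400.1 to 487.3 in f/f livers. All 5 were separate with d/d higher, as were 7.9% of all genes, and nearness to Plxna2 on this measure nearly fixes that.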

How the data were processed

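Per the labels' protocols, biotin-labelled total RNA of liver was put on Affymetrix arrays. The authors deposited linear intensities for 45101 probe sets on 6 arrays. Their summary of probes, background correction and scaling are not given in the sources used here. Arrays were grouped by the genotype in their labels, 3 per group, and that number limits the precision.

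Probe sets were named by the platform annotation, 34945 with 1 symbol, 932 with several and 9160 with none, besides 64 control probe sets. Those without a single symbol stayed out of the tests. Intensities were used as log2(intensity + 16). Array quartiles differed by up to 0.185, over the tolerance of 0.1, so arrays were quantile normalized. The genotype was the only term of the model, fitted by limma 3.58.1 (lmFit, eBayes) under R 4.3.3, with Benjamini-Hochberg adjustment and a threshold of 0.05. The gene fit used the brightest probe set of each gene above the lowest 40% (13718 genes), and the probe set fit used all 34945. Differences of member probe sets come from the latter, those of other genes from the former. The fit was also run on simulated data with independent noise, for each gene of the same spread on every array. Those data held no deviating array such as f/f replicate 3 and no pairing, so they do not test the fit under either.

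The members, lists, tests and alternatives were chosen with earlier results of these data known. Named genes were Errfi1, all members, the 2 brightest and the 2 most different of each list of ligands and partners, the 2 brightest of each marker list, and the 5 genes nearest to Plxna2. Sema6a, Gsk3b, Ms4a1, Cd79a, Col3a1 and those named under other observations are exceptions. Promoter sequences and gene positions are RefSeq's (GRCm38.p6), and no coordinates were taken from the array. Alternatives covered scaling, pseudocount, dim filter, probe set choice, variance model, array weights, replicate number as a block, threshold and each array left out. Outliers within groups of 3 were not tested. Python 3.11.15 with matplotlib 3.10.9 drew the figures.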

Additional observations from a re-analysis of the deposited data

How the results depend on the processing

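Of the 24 probe sets of the 9 members other than Plxna2, 12 changed sign under at least 1 of 13 alternatives. The count of members called, 1, fell to 0 with the mean of all probe sets and with the replicate number as a block. Genes called, 13 by the settings of the report, were 20 with the mean of probe sets, 21 with a variance trend, 21 at a threshold of 0.10 and 215 with array weights, and 11 to 16 under changed scaling, pseudocount or dim filter. Probe sets called, 26 by the settings of the report, were 12 with a pseudocount of 1, 51 at a threshold of 0.10 and 208 with array weights, and 22 to 36 under changed scaling, a pseudocount of 64 or a variance trend. With the replicate block, 6 genes and 13 probe sets passed and 0 members. The labels do not say whether equal replicate numbers pair the samples. Deviations of equally numbered arrays correlated at -0.0033, -0.14 and -0.47, and those of unequally numbered arrays at -0.47 to 0.43. With 3 arrays per group these values cannot decide whether the samples were paired. With 1 array left out, genes called lay between 4 and 91. The lowest count was that without d/d replicate 1 and the highest that without f/f replicate 3, and there were 6 and 7 without d/d replicates 2 and 3 and 7 without f/f replicate 1. Probe sets called ran from 10 to 137, and members called from 0 to 1, the 1 being without f/f replicate 3. Leaving out an array leaves fewer samples, and for f/f replicate 3 the cause was not tested. In none of the 12 lists of partners and markers did a gene pass in the 7 alternatives run for lists. Pseudocounts changed the size for Plxna2 by 1453286_at, to 1.09 with 1 and 0.75 with 64. With 64 they gave 0.61 for 1455037_at and 0.19 for 1429772_at. Of the 28 member probe sets, 7 were dim, and their differences rest on low signals.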

Other observations

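The genes here were chosen after their values were seen. Plxnb3, a class B plexin outside the list followed here, read 72.9, 94.5 and 69.7 in d/d livers, against 81.8, 61.2 and 115 in f/f livers by 1418750_at. By 1440813_s_at it read 106, 152 and 115 in d/d livers, against 111, 113 and 144 in f/f livers. The groups overlapped on both probe sets. The other genes with 4 probe sets that were all separate and higher in d/d were Hspa8, a constitutive heat shock cognate chaperone, and Kyat1, a kynurenine aminotransferase.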
